A study of Homo sapiens with 12 samples.

Results

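The genes described here are RBFOX2, TARDBP and HNRNPM, which encode the 3 RNA-binding proteins precipitated in the study: RBFOX2 (called FOX2 for the protein), TDP43 and hnRNP M. They were chosen because their proteins were the antibody targets, and their RNAs were read as strand-specific intervals of the hg19 build. RBFOX2 lies on chromosome 22 from 36134783 to 36424585 on the minus strand, TARDBP on chromosome 1 from 11072679 to 11085549 on the plus strand, and HNRNPM on chromosome 19 from 8509803 to 8554000 on the plus strand. The intervals are 289.803, 12.871 and 44.198 kb long. They are 3 of 97589 features with signal, the others being strand-specific 10 kb bins, and they held 1077 of the 1162690 positions listed over the 12 libraries. All of these lay on the strand of the gene.

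The measurements were iCLIP libraries from H9, an established human embryonic stem cell line. In iCLIP, ultraviolet light links a protein to RNA in living cells, an antibody recovers the protein, and the place where reverse transcription stopped marks the contact. All cells were given 400 mJ per square centimetre. The groups were FOX2 P-KO, FOX2 WT, TDP43 P-KO, TDP43 WT, hnRNP M P-KO and hnRNP M WT, with 2 libraries each, which the design text calls biological replicates. The source label of the P-KO cells reads SPA PKO, SPA RNAs being long noncoding RNAs of the Prader-Willi region of chromosome 15. The sources used here do not say how many clones stand behind P-KO, and H9 marker genes were not read because gene names of the hg19 build were not used here.

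FOX2 is a splicing regulator that binds UGCAUG elements, mostly in introns near alternative exons, and RBFOX proteins are known to bind the transcripts of their own family. TDP43 binds GU-rich RNA. It is known for binding the 3' untranslated region of its own mRNA, which lowers the level of that mRNA. The protein hnRNP M is an abundant nuclear splicing factor that binds GU-rich sequence and is found in a large assembly with RBFOX proteins. These statements are background and were not measured here.

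Each listed position carries a whole-number count that covers 5 nt on both sides, so overlapping windows of 11 nt were reduced to the highest ones, and their counts are called window counts. Window counts per library were 172613 to 648651 for FOX2 and TDP43 and 58191 to 123482 for hnRNP M. Values per 1000000 window counts of a library are called CPM. The chromosome 15 region from 25000001 to 26000000 held 0.0530% to 0.160% of the counts of P-KO libraries and 0.915% to 1.63% of those of WT libraries, so the libraries followed their genotype labels. Counts were listed only above a limit set per library and label, and a gene without a line is therefore called listed at 0. A CPM value reflects both how much of an RNA a cell holds and how often the protein touched it. These cannot be told apart here, nor can fewer cells be told from less RNA per cell.

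**Figure D1:**
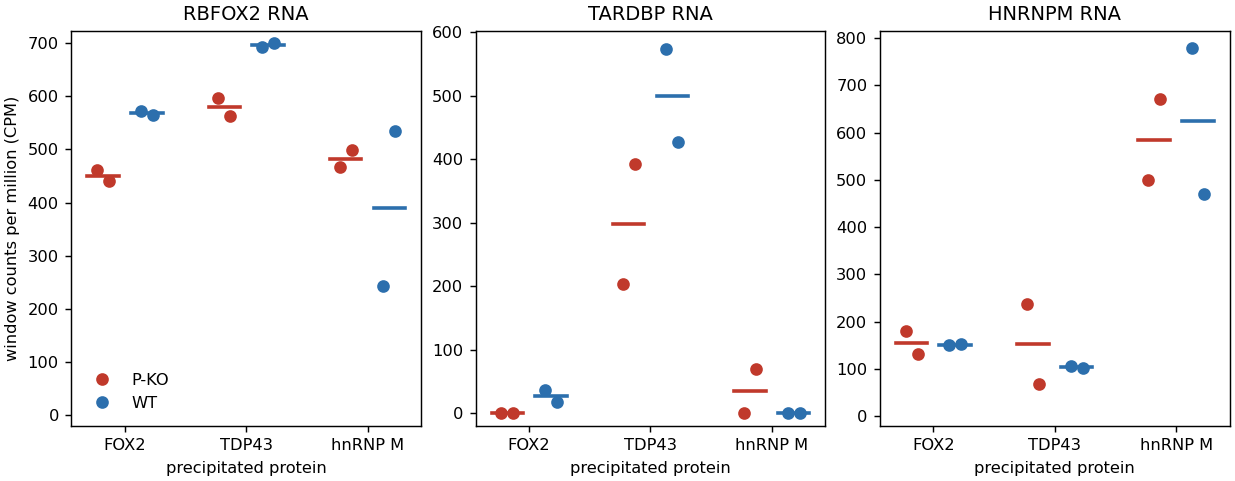
Window counts per 1000000 (CPM, vertical axis) on RBFOX2, TARDBP and HNRNPM RNA in each library, with a bar at the mean of 2 libraries; red points are P-KO and blue points WT. On TARDBP the TDP43 libraries lie at 203 CPM or above and all others at 68.7 CPM or below, and hnRNP M libraries lay above all others on HNRNPM.

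The highest mean density among the 9 pairings of a protein with an RNA was that of TDP43 on its own RNA. Per kb of interval, TDP43 had 31.0 ± 11.8 CPM on TARDBP (SD, n = 4 libraries), hnRNP M had 13.7 ± 3.30 on HNRNPM, and FOX2 had 1.76 ± 0.235 on RBFOX2. The first 2 overlapped, with 15.8 to 44.5 CPM per kb for TDP43 and 10.6 to 17.6 for hnRNP M. FOX2 was no denser on its own RNA than on HNRNPM, where it had 3.48 ± 0.464 CPM per kb. TDP43 had 2.20 ± 0.236 CPM per kb on RBFOX2 and 2.91 ± 1.69 on HNRNPM, which overlapped. The lowest densities were 1.05 ± 1.35 CPM per kb for FOX2 and 1.34 ± 2.67 for hnRNP M, both on TARDBP.

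On TARDBP RNA, both FOX2 P-KO libraries were listed at 0, and FOX2 had 8 and 5 window counts in WT. TDP43 had 35 and 115 window counts in P-KO and 119 and 121 in WT, which is 203 and 393 CPM in P-KO and 573 and 428 CPM in WT. For hnRNP M, P-KO libraries had 0 and 4 counts, and both WT libraries were listed at 0. The TDP43 libraries thus lay apart from all 8 libraries of the other proteins, whose highest value was 68.7 CPM. How many of all features separate TDP43 libraries in this way was not counted. The order of mean levels was 399 ± 152 CPM for TDP43, 17.2 ± 34.4 for hnRNP M and 13.5 ± 17.4 for FOX2 (SD, n = 4 each), and hnRNP M and FOX2 overlapped. By density, TARDBP ranked 379th of 31956 and 125th of 45193 features with signal in TDP43 P-KO libraries, and 95th of 34424 and 116th of 43415 in TDP43 WT.

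In the fit over both genotypes, TARDBP RNA was lower in FOX2 than in TDP43 libraries by a log2 fold change of -5.11 ± 1.22 (SE; edgeR quasi-likelihood test, adjusted p = 0.00152), a comparison in which 8.91% of all 10552 features passed. It was higher in TDP43 than in hnRNP M libraries by 5.98 ± 1.32 (edgeR, adjusted p = 0.000718), where 13.6% of features passed. FOX2 over hnRNP M gave 0.87 ± 1.38 for this RNA (edgeR, adjusted p = 0.784; 16.7% of features passed). Each pair of these comparisons shares 4 libraries. The first call did not pass with a filter of at least 1 count in 1 library (edgeR, adjusted p = 0.102), without FOX2 P-KO replicate 1 (edgeR, adjusted p = 0.109), FOX2 P-KO replicate 2 (adjusted p = 0.115) or FOX2 WT replicate 2 (adjusted p = 0.0631), while the second passed whichever library was left out. An exact permutation test of 4 libraries against 4 gave p = 0.0286 for both, the smallest that 70 arrangements allow, and 0.0514 when adjusted over 9 comparisons.

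TDP43 contacts on TARDBP were gathered in a short stretch, and most carried no intron number. Of 390 TDP43 window counts on this RNA, 371 carried a transcript label with no intron number, 354 of them the label ENST00000240185.3. Windows of that label ran from 11082483 to 11084047. Among them, at 11083178, lay 4 counts of WT replicate 1 labelled intron 2 of ENST00000477447.2. A position without an intron number can thus lie beside an intron of another transcript. The intron share was 22.9% (95% Clopper-Pearson interval 10.4 to 40.1) and 3.48% (0.956 to 8.67) in P-KO, and 3.36% (0.923 to 8.38) and 2.48% (0.514 to 7.07) in WT. The 4 libraries as a whole had 86.97% to 90.6% of their counts in introns, leaving out the mitochondrial genome and the ribosomal contig GL000220. Most TDP43 counts on TARDBP therefore lay where few of the libraries' other counts did.

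The stretch from the first to the last TDP43 site seen in at least 2 libraries ran from 11083270 to 11083932, which is 663 nt or 5.15% of the interval, 10.591 to 11.253 kb from its 5' end. It was drawn from these libraries, so its shares are a description. It held 54.3% (95% Clopper-Pearson interval 36.6 to 71.2) and 91.3% (84.6 to 95.8) of the TDP43 counts on TARDBP in P-KO, and 86.6% (79.1 to 92.1) and 92.6% (86.3 to 96.5) in WT. TDP43 P-KO replicate 1 stood apart from the other 3 libraries, with 19 counts in the stretch against 105 in P-KO replicate 2 and 103 and 112 in WT. Intervals here cover counting error alone, and whether counts are independent molecules is not stated.

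Of 28 distinct TDP43 sites on TARDBP, 13 were found in at least 2 libraries, and none of these 13 carried an intron number. The site at 11083594 was the only one in all 4 libraries, with 4 and 12 counts in P-KO and 24 and 5 in WT. The site at 11083895 had 0 and 17 counts in P-KO and 18 and 14 in WT. The site at 11083882 had 0 and 25 counts in P-KO and 0 and 22 in WT. The counts at these 3 sites thus varied widely between replicates of a group. FOX2 had 4 sites on TARDBP, each in 1 library, and the one at 11083592, with 4 counts in WT replicate 1, overlapped the TDP43 site at 11083594. The single hnRNP M site, at 11076174, lay in an intron and had 4 counts in P-KO replicate 2.

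**Figure D2:**
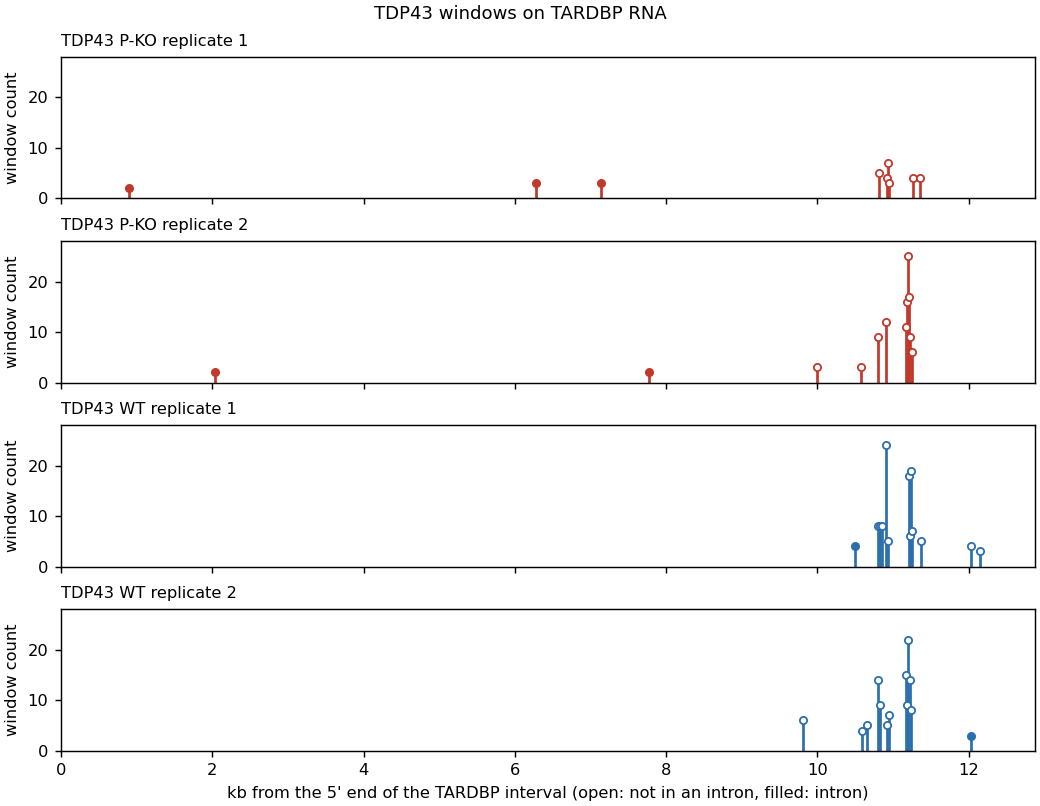
TDP43 windows on TARDBP RNA, 1 panel per library (P-KO above WT), with distance from the 5' end of the interval in kb on the horizontal axis and the window count on the vertical axis; filled points lie in introns and open points do not. Open points gather between 10.591 and 11.253 kb in every library, with the fewest counts in P-KO replicate 1.

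The limit for listing a position bears on TARDBP. On the label ENST00000240185.3 the lowest listed TDP43 count was 3 and 6 in P-KO and 5 and 5 in WT, against 2 for the libraries as a whole. Weaker contacts on that label would be left out of the lists.

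RBFOX2 RNA had window counts in all 12 libraries. FOX2 had 107 and 286 window counts in P-KO (461 and 441 CPM) and 125 and 163 in WT (571 and 565 CPM). TDP43 had 103 and 165 counts in P-KO (597 and 564 CPM) and 144 and 198 in WT (693 and 700 CPM). For hnRNP M there were 29 and 29 counts in P-KO (468 and 498 CPM) and 15 and 66 in WT (243 and 534 CPM). TDP43, not FOX2, thus had the highest mean level on RBFOX2, with 638 ± 68.4 CPM, followed by FOX2 with 509 ± 68.2 and hnRNP M with 436 ± 131 (SD, n = 4 each). FOX2 overlapped both of the others, and the lowest TDP43 value, 564 CPM, lay above the highest hnRNP M value, 534 CPM. How many of all features separate these proteins in this way was not counted.

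None of the differences between proteins on RBFOX2 passed. The log2 fold change was -0.11 ± 0.96 for FOX2 over TDP43 (SE; edgeR, adjusted p = 0.965), 1.84 ± 1.00 for FOX2 over hnRNP M (edgeR, adjusted p = 0.221) and 1.96 ± 1.00 for TDP43 over hnRNP M (edgeR, adjusted p = 0.203). Without hnRNP M WT replicate 2 both comparisons with hnRNP M passed (edgeR, adjusted p = 0.0382 for FOX2 and 0.0416 for TDP43), and TDP43 over hnRNP M passed with DESeq2 (adjusted p = 0.00846). All 3 passed on the number of windows in place of their counts (edgeR, adjusted p = 0.0128, 0.00225 and 1.15e-06). Both comparisons with hnRNP M depended on scaling. Without TMM scaling they fell to 0.21 for FOX2 (edgeR, adjusted p = 0.886) and 0.54 for TDP43 (edgeR, adjusted p = 0.707). The exact permutation test gave p = 0.0286 for TDP43 over hnRNP M, and 0.0514 when adjusted over 9 comparisons.

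Nearly all contacts on RBFOX2 were intronic. Introns held 96.3% and 94.4% of FOX2 counts in P-KO and 94.4% and 94.5% in WT. The TDP43 share was 100% in both P-KO libraries and 98.6% and 98.5% in WT, and hnRNP M ranged from 95.5% to 100%. FOX2 thus had the lowest intron share on its own RNA, with 36 of 681 counts outside introns, while TDP43 had 5 of 610 and hnRNP M had 3 of 139. In these files intron numbers rise with the coordinate on both strands, so a high number on RBFOX2 means a place near its 5' end.

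The proteins spread differently along RBFOX2. The span of the long 5' introns labelled 13, from 36206128 to 36423980 and 75.2% of the interval, held 33.6% and 32.9% of FOX2 counts in P-KO and 59.2% and 70.6% in WT, whatever their label. It held 90.3% and 86.1% of TDP43 counts in P-KO and 92.4% and 86.9% in WT. For hnRNP M the share was 100% in both P-KO libraries, from 29 counts each, and 100% and 72.7% in WT. All 4 TDP43 shares were thus above the share of the length and all 4 FOX2 shares below it, with FOX2 WT replicate 2 closest to it.

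FOX2 shares in P-KO and WT lay far apart in 1 stretch of RBFOX2. Between 36149678 and 36155730, the span of positions labelled intron 3 of ENST00000405409.2 and 2.09% of the interval, FOX2 had 44 of 107 and 128 of 286 counts in P-KO, and 7 of 125 and 10 of 163 in WT. These are 41.1% (95% Clopper-Pearson interval 31.7 to 51.0) and 44.8% (38.9 to 50.7) in P-KO, against 5.60% (2.28 to 11.2) and 6.13% (2.98 to 10.99) in WT. These intervals cover counting error alone, and over features of the whole genome replicates differed beyond it. The stretch held at most 2.42% of TDP43 counts in any library, and 10.6% of hnRNP M counts in WT replicate 2 with 0 in the other 3 hnRNP M libraries. It was chosen after its values were seen, so no test is given for it.

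The same libraries differed over the whole genome. Windows of at least 5 counts held 43.5% and 65.3% of all FOX2 counts in P-KO and 17.0% and 24.8% in WT, and a window averaged 3.84 and 5.76 counts in P-KO, against 2.76 and 2.93 in WT. The part of this in the pattern on RBFOX2 was not tested.

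**Figure D3:**
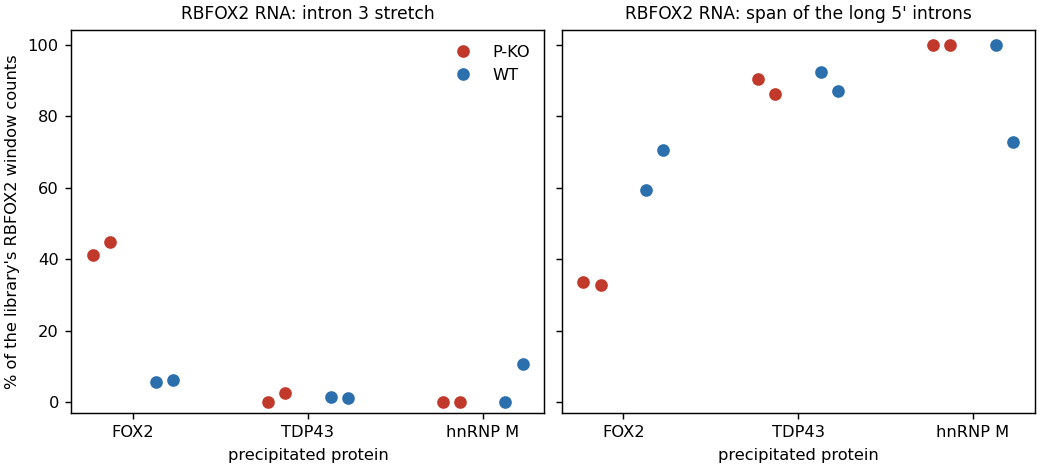
Share of each library's RBFOX2 window counts (vertical axis, %) in the intron 3 stretch (left panel) and in the span of the long 5' introns (right panel), by precipitated protein, with P-KO in red left of WT in blue. FOX2 P-KO libraries reach 41.1% and 44.8% in the left panel, and all other libraries lie at or below 10.6%.

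In a fit of 10 kb bins alone, the bin from 36150001 to 36160000 had 44 and 124 FOX2 counts in P-KO and 7 and 18 in WT, 0 and 2 TDP43 counts in P-KO and 2 and 2 in WT, and 7 hnRNP M counts in WT replicate 2 alone. The log2 fold change of P-KO over WT in FOX2 libraries was 2.14 ± 1.60 and did not pass among 10563 bins (SE; edgeR, adjusted p = 1.00). Over both genotypes the bin was higher in FOX2 than in TDP43 libraries by 4.55 ± 1.37 (edgeR, adjusted p = 0.0177; 8.94% of bins passed) and higher than in hnRNP M libraries by 4.23 ± 1.42 (edgeR, adjusted p = 0.0218; 16.8% of bins passed). The bin covers most of the stretch above and was named because it has the most FOX2 counts on RBFOX2. Its calls for FOX2 over the other proteins are therefore a description and not separate evidence. Of the 10 tested bins of RBFOX2, this bin was the only one that passed for FOX2 over TDP43, where 8.94% of all bins did. It was 1 of 2 that passed for FOX2 over hnRNP M, where 16.8% of all bins did. For TDP43 over hnRNP M 2 other bins of RBFOX2 passed, against 13.6% of all bins. No tested bin of the 3 RNAs passed for P-KO over WT, where 0.0189% of all bins did in FOX2, 0.0284% in TDP43, 0.0473% in hnRNP M and 0.123% in common. The first call was lost without any one of the 4 TDP43 libraries, either FOX2 P-KO library or FOX2 WT replicate 2 (edgeR, adjusted p up to 0.240), and the second without TMM scaling (edgeR, adjusted p = 0.184), with at least 20 counts in 2 libraries (edgeR, adjusted p = 0.117) and without 6 of the 12 libraries in turn (edgeR, adjusted p up to 0.104).

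Single sites on RBFOX2 were seldom found again. Of 189 FOX2 sites 14 were in at least 2 libraries, against 7 of 239 TDP43 sites and 1 of 30 hnRNP M sites. The FOX2 site with the highest mean, at 36152787, had 12 and 6 counts in P-KO and 4 and 0 in WT. The site at 36152312 had 8 and 5 counts in P-KO, and the site at 36152344 had 3 and 18 in P-KO, with none in either WT library for both sites. These 3 FOX2 sites all lay in the stretch in intron 3. The TDP43 sites lay elsewhere, at 36233566 (4 and 2 counts in P-KO, 2 and 0 in WT), at 36233357 (0 and 0 in P-KO, 4 and 3 in WT) and at 36414248 (3 and 0 in P-KO, 0 and 2 in WT). The repeated hnRNP M site at 36310753 had 12 and 0 counts in P-KO and 0 and 6 in WT.

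**Figure D4:**
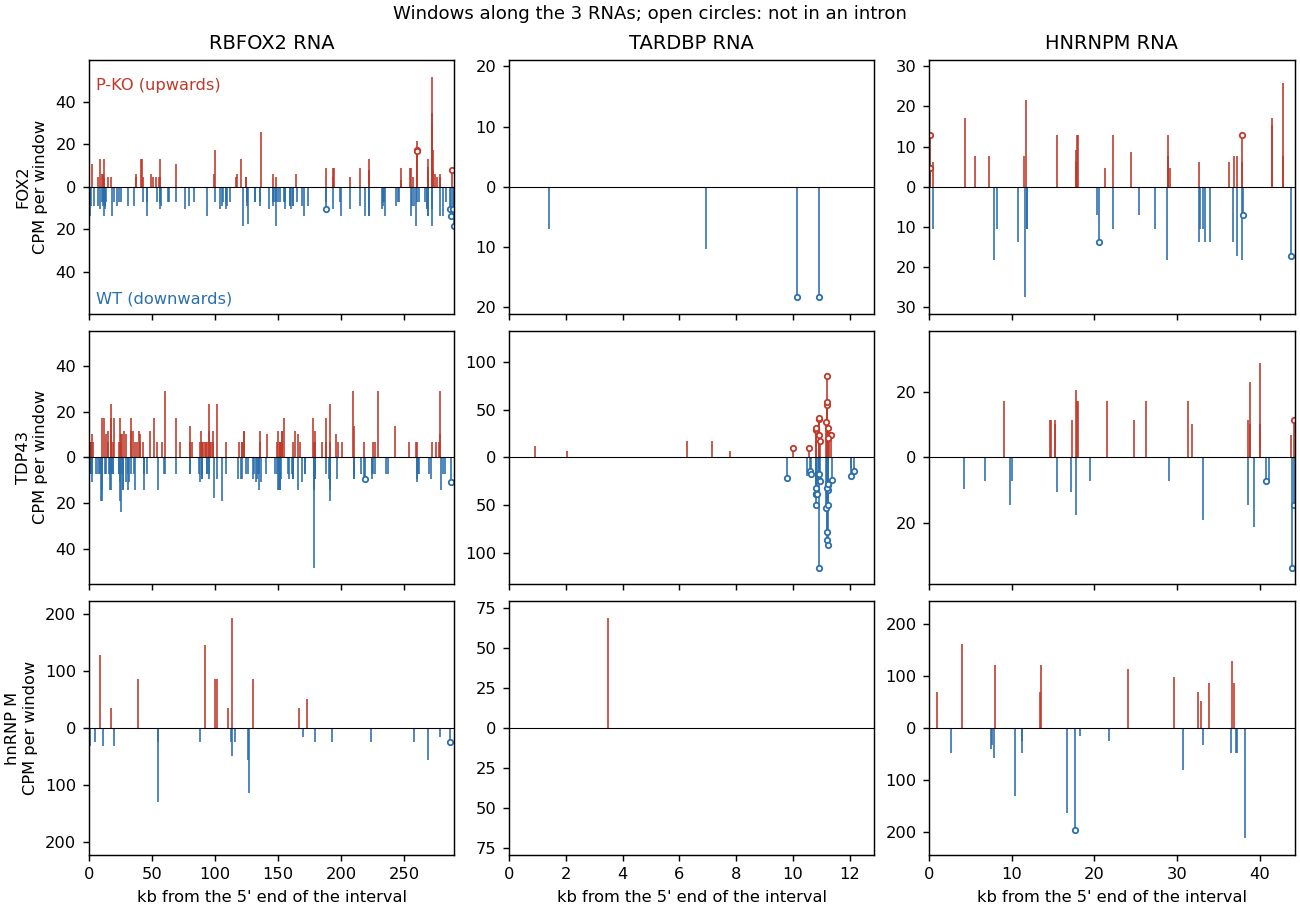
Windows along the 3 RNAs (columns) for the 3 proteins (rows), with distance from the 5' end of the interval in kb on the horizontal axis and CPM per window on the vertical axis, P-KO upwards in red and WT downwards in blue; open circles are windows outside introns, and each row and column has its own scale. TDP43 on TARDBP is the panel in which most windows are open circles, and the tallest FOX2 windows on RBFOX2 are P-KO windows near its 3' end.

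HNRNPM RNA had higher CPM in hnRNP M libraries than in those of the other proteins. FOX2 had 42 and 85 window counts in P-KO (181 and 131 CPM) and 33 and 44 in WT (151 and 152 CPM). TDP43 had 41 and 20 counts in P-KO (238 and 68.3 CPM) and 22 and 29 in WT (106 and 102 CPM). For hnRNP M there were 31 and 39 counts in P-KO (500 and 670 CPM) and 48 and 58 in WT (779 and 470 CPM). The 4 hnRNP M libraries thus lay above the 8 others without overlap, and FOX2 and TDP43 overlapped. How many of all features separate hnRNP M libraries in this way was not counted, so the separation is a description. FOX2 averaged 154 ± 20.5 CPM, TDP43 averaged 129 ± 74.6 and hnRNP M averaged 605 ± 146 (SD, n = 4 each). Ranked by density within each library, HNRNPM lay above 34.3% and 85.3% of features with signal in hnRNP M P-KO libraries and above 68.0% and 94.9% in hnRNP M WT. It lay above 85.2% to 89.5% of features in FOX2 libraries and above 67.2% to 89.6% in TDP43 libraries. These ranks leave out bins without signal, and the 10 kb bins are shorter than the interval. In a sparse library a single window can thus place a bin above a longer gene. RBFOX2 ranked last of 6699 features in hnRNP M P-KO replicate 1. The ranks of HNRNPM therefore cannot be compared between proteins of unlike depth.

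This difference did not pass the test. The log2 fold change was -0.19 ± 0.98 for FOX2 over hnRNP M (SE; edgeR, adjusted p = 0.944), -0.75 ± 0.99 for TDP43 over hnRNP M (edgeR, adjusted p = 0.732) and 0.55 ± 0.99 for FOX2 over TDP43 (edgeR, adjusted p = 0.813). The first 2 values depend on scaling. TMM factors were 1.20 to 3.20 in hnRNP M libraries and 0.516 to 0.908 in the others, and the median of all features was 0.84 for FOX2 over hnRNP M with TMM and -0.77 without it. Without TMM, HNRNPM was at -1.98 ± 0.865 for FOX2 over hnRNP M (edgeR, adjusted p = 0.112) and -2.25 ± 0.879 for TDP43 over hnRNP M (edgeR, adjusted p = 0.106).

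Relative to the median of all features, HNRNPM RNA stood at -1.03 for FOX2 over hnRNP M with TMM and -1.20 without, and at -1.74 and -1.86 for TDP43 over hnRNP M. On the same footing RBFOX2 stood at 1.00 and 0.98 for FOX2 over hnRNP M, and TARDBP at 4.99 and 4.87 for TDP43 over hnRNP M. Subtracting this median takes out a shift common to all features, so near-equal values under both scalings follow from the construction. The exact permutation test on log2(CPM + 10) gave -1.89 for FOX2 over hnRNP M and -2.26 for TDP43 over hnRNP M on HNRNPM, both with p = 0.0286 and 0.0514 when adjusted over 9 comparisons.

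**Figure D5:**
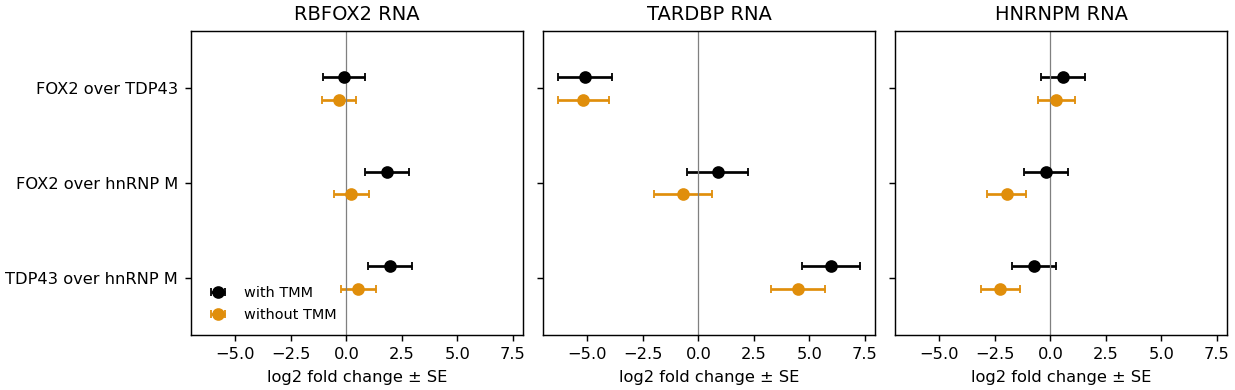
Log2 fold change between proteins (horizontal axis, ± SE) for each RNA, with TMM scaling in black and without it in orange. TARDBP lies far from 0 in both comparisons with TDP43 under both scalings, and HNRNPM moves from near 0 to -1.98 for FOX2 over hnRNP M when TMM is left out.

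Contacts on HNRNPM were mostly intronic for each protein, introns holding 185 of 204 FOX2 counts, 98 of the 112 TDP43 counts and 164 of the 176 that hnRNP M had. Pooled, these were 90.7%, 87.5% and 93.2%. The libraries as a whole, without the mitochondrial genome and GL000220, had 87.4% to 90.8%, 86.97% to 90.6% and 92.8% to 95.8%. HNRNPM thus lay within the range of the libraries of each protein. The lowest intron share was in TDP43 WT replicate 1, at 54.5% (95% Clopper-Pearson interval 32.2 to 75.6), from 22 counts. The spans of positions labelled introns 1, 2 and 13 of ENST00000348943.3, which are 22.3%, 13.6% and 19.4% of the interval, held 29.0%, 17.0% and 40.3% of hnRNP M counts on this RNA, whatever their label. The same spans held 13.7%, 12.3% and 26.96% of FOX2 counts, and 10.7%, 15.2% and 8.93% of TDP43 counts. The 3 labels are those with the most hnRNP M counts on this RNA, so the shares are a description. The span of intron 13 thus held the most hnRNP M counts of the 3, and each of the 4 libraries had some there, with 14 and 17 in P-KO and 18 and 22 in WT.

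No hnRNP M site on HNRNPM was found in more than 1 library, among 29 sites. Those with the highest mean were at 8548022 in intron 13, at 8527427 outside introns and at 8526455 in intron 2, with 13, 12 and 10 counts, all in WT replicate 1. FOX2 had 5 of 48 sites in at least 2 libraries, among them 8552545 with 6 and 5 counts in P-KO, 8551330 with 4 and 10 in P-KO, neither listed in WT, and 8547025 with 0 and 5 in P-KO and 0 and 5 in WT. TDP43 had 4 of 32, among them 8549855 with 5 and 3 counts in P-KO and none in WT. Others were 8527623 with 0 and 6 in P-KO and 0 and 5 in WT, and 8548352 with 2 and 0 in P-KO and 3 and 0 in WT. The 4 hnRNP M libraries, at 470 to 779 CPM on HNRNPM, thus shared no site at this depth.

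Between genotypes, none of the 3 RNAs passed in any protein. The share of all features that passed was 0.019% in FOX2, 0.0284% in TDP43 and 0.0474% in hnRNP M libraries, and 0.123% for the effect common to the 3 proteins. For RBFOX2 the log2 fold change of P-KO over WT was -0.16 ± 1.30 in FOX2, -0.38 ± 1.30 in TDP43 and -0.39 ± 1.32 in hnRNP M libraries (SE; edgeR, adjusted p = 1.00 in each). For HNRNPM it was 0.18 ± 1.33, 0.29 ± 1.34 and -0.38 ± 1.34 (edgeR, adjusted p = 1.00 in each). For TARDBP it was -0.76 ± 1.34 in TDP43 libraries (edgeR, adjusted p = 1.00). No fold is given for TARDBP in FOX2, where neither P-KO library listed a count (edgeR, unadjusted p = 0.0059, adjusted p = 1.00), or in hnRNP M, where neither WT library did (edgeR, adjusted p = 0.400).

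In CPM, both P-KO libraries lay below both WT libraries for RBFOX2 and TARDBP, in FOX2 and in TDP43. HNRNPM overlapped in all 3 proteins, as did RBFOX2 and TARDBP in hnRNP M. For TARDBP in FOX2 the separation is that of libraries listed at 0 in P-KO from 8 and 5 window counts in WT. The share of all features with such a separation was not counted, so the pattern is a description of these libraries. RBFOX2 averaged 451 ± 14.1 CPM in P-KO and 568 ± 4.86 in WT for FOX2, and 580 ± 23.3 in P-KO and 696 ± 4.70 in WT for TDP43 (SD, n = 2 each). These gaps are wider than the spread of the pairs, yet small beside the spread of the fit. With 2 libraries a group, the smallest exact p is 0.333. Over the 3 proteins, the exact stratified permutation test gave p = 0.898 for RBFOX2, 0.639 for TARDBP and 0.833 for HNRNPM, and 0.898 for each when adjusted over the 3, with a smallest possible p of 0.00926. The genotype effect did not differ between proteins at the threshold for RBFOX2 (edgeR, adjusted p = 1.00), TARDBP (adjusted p = 0.807) or HNRNPM (adjusted p = 1.00), in a test that called 0% of features. That edgeR test had 515 features at an unadjusted p under 0.05, and DESeq2 called 1.

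Windows recurred between libraries most for TDP43 on TARDBP, pooled over pairs of one protein's libraries. For each pair of libraries, overlap is the part of the smaller library's windows that touch a window of the other by at least 1 nt. For TDP43 on TARDBP it was 11.1% and 53.8% between replicates and 33.3% to 66.7% between P-KO and WT. For FOX2 on RBFOX2 it was 31.0% between P-KO replicates and 4.00% between WT replicates, and 3.45% to 10.0% between P-KO and WT. On HNRNPM, overlap between P-KO replicates was 33.3% for FOX2 (4 of 12 windows) and for TDP43 (2 of 6), and 0% between WT replicates for both. For hnRNP M it was 0% in both genotypes. Overlap was not corrected for how closely windows lie. On TARDBP, 4 of 9 TDP43 windows in P-KO replicate 1 and 11 of 13 in WT replicate 2 lay within 663 nt. The RBFOX2 interval spans 289.803 kb, so the RNAs differ in this respect. Between proteins, pooled over the 16 pairs of libraries, FOX2 and TDP43 shared 1.63% of windows on RBFOX2 and 2.19% on HNRNPM. On TARDBP they shared 4 of 16 over 8 pairs, all of them 1 window of FOX2 WT replicate 1. That window touched a window in each of the 4 TDP43 libraries, so the pooled share there rests on a single FOX2 window. TDP43 and hnRNP M shared 0 of 124 on RBFOX2 and 0 of 98 on HNRNPM.

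Other places followed the 3 RNAs across libraries. Among 10549 tested bins, Pearson's r of log2(CPM + 10) with TARDBP over the 12 libraries was highest for the bin from 129620001 to 129630000 on chromosome 12, minus strand (r = 0.970), and the bin from 177670001 to 177680000 on chromosome 5, minus strand (r = 0.955). For HNRNPM these were the bins from 207440001 on chromosome 2, plus strand (r = 0.940), and from 15310001 on chromosome 6, plus strand (r = 0.937). For RBFOX2 they were the bins from 126010001 on chromosome 6, minus strand (r = 0.905), and from 109640001 on chromosome 1, plus strand (r = 0.889). The points share protein, library and depth, so these values are a description.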

How the data were processed

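The submitters' processing notes name Bowtie and the build GRCh37 (hg19). No version or peak caller is given in the sources used here. In the deposited lists, 1 per library, a line holds a position, an Ensembl transcript with an intron number where intronic, a strand, a raw count and a last column, at or below 0.05, that the authors deposited as a p-value or a q-value. Which of p and q it is, and whether counts are reads or collapsed cDNAs, is not stated.

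Windows were kept from the highest count downwards, at least 11 nt apart on a strand. Window counts were summed over the 3 genes and over 10 kb bins elsewhere. All 12 libraries were fitted together with edgeR 4.0.16 (R 4.3.3), with filterByExpr, TMM, the quasi-likelihood F test and Benjamini-Hochberg adjustment over 10552 features (threshold 0.05). Group means were fitted for genotype, and protein plus genotype for the common effect and for comparisons of proteins (4 libraries against 4). DESeq2 1.42.0, other filters and scalings, intron positions alone, window numbers, a replicate block and leaving out each library were alternatives. Permutation tests (Python 3.11.15, scipy 1.17.1) used log2(CPM + 10), two-sided. Fits were tested on simulated data with 200 features changed 16-fold, up or down. Of these 28.5% were called for the common genotype effect and 16% for FOX2 over TDP43, with 1 and 0 unchanged features called. Most changes of that size were thus missed, and a comparison that did not pass does not show equal binding. Replicates of each group differed beyond sampling noise (chi-square per degree of freedom 5.99 to 11.9), and p-values measure the spread between these libraries.

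Named sites are the 3 of highest mean CPM per gene and protein among those in at least 2 libraries of that protein, or in 1 where no more exist, and named bins the 2 of highest r per gene. The members, lists and rules were chosen with earlier results of these data known. A planned list of other RNA-binding protein genes, the cell type markers and the motif search were not used here, since they need an hg19 annotation or genome. No sequence is printed for the same reason.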

Additional observations from a re-analysis of the deposited data

How the results depend on the processing

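All values here are log2 fold changes. With DESeq2, RBFOX2 for TDP43 over hnRNP M reached 1.65 and passed, HNRNPM for P-KO over WT was -0.16 in FOX2 and -0.0015 in common, and RBFOX2 in hnRNP M was 0.078. By the number of windows, RBFOX2 passed at -0.82 for FOX2 over TDP43, 1.34 for FOX2 over hnRNP M and 2.16 for TDP43 over hnRNP M, and HNRNPM was -0.051 for FOX2 over TDP43, -0.066 for P-KO over WT in FOX2 and 0.056 in hnRNP M. With a filter of at least 1 count, TARDBP for FOX2 over TDP43 was -5.05 and did not pass, RBFOX2 was 0.041 there and 0.069 for P-KO over WT in FOX2, and HNRNPM for FOX2 over hnRNP M was 0.23. With at least 20 counts in 2 libraries, HNRNPM for P-KO over WT was -0.39 in FOX2 and -0.11 in common. Summed over all listed positions, RBFOX2 was 0.069 for FOX2 over TDP43 and 0.45 for P-KO over WT in FOX2, and HNRNPM was 0.15 for FOX2 over hnRNP M and, for P-KO over WT, -0.32 in TDP43 and -0.25 in common. Without TMM, RBFOX2 for P-KO over WT in hnRNP M was 0.30 and TARDBP for FOX2 over hnRNP M -0.70. In FOX2 libraries alone, HNRNPM for P-KO over WT was -0.48. The exact permutation, added after seeing the data, left TARDBP at -4.35 for FOX2 over TDP43 and 4.52 for TDP43 over hnRNP M, not past the threshold when adjusted. The causes were not tested, and no value that turned its sign was past the threshold. Leaving out 1 library at a time, TARDBP for FOX2 over TDP43 ranged from -5.91 to -4.41. RBFOX2 ranged from -0.30 to 0.088 for FOX2 over TDP43, 1.89 to 2.92 for FOX2 over hnRNP M, 1.90 to 2.96 for TDP43 over hnRNP M, and for P-KO over WT from -0.42 to 0.22 in FOX2, -1.50 to 1.38 in hnRNP M and -0.56 to 0.11 in common. HNRNPM ranged from -0.054 to 0.54 for FOX2 over hnRNP M, and for P-KO over WT from -0.43 to 0.89 in TDP43, -1.11 to 0.014 in hnRNP M and -0.27 to 0.21 in common. Same-numbered libraries did not deviate together (r from 0.0042 to 0.132 over 15 pairs of groups, 1 above 0.1), and a replicate block, giving -5.04 for TARDBP in FOX2 over TDP43, changed no call on the 3 RNAs. TARDBP did not pass the filter with intron positions alone or by the number of windows and has no value there.

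Features called for FOX2 over TDP43 were 940 in the fit reported, 1513 with DESeq2, 220 with at least 1 count, 2299 in the libraries compared alone and 199 to 1052 leaving out 1 library. For FOX2 over hnRNP M they were 1765, with 1045 without TMM, 579 by windows and 1414 to 3711 leaving out 1 library, and for TDP43 over hnRNP M 1434, with 291 without TMM, 145 with at least 1 count and 790 to 3192 leaving out 1 library. The highest of both were without hnRNP M WT replicate 2, and the lowest of the second without TDP43 P-KO replicate 2 (901 without TDP43 WT replicate 2, 866 without hnRNP M P-KO replicate 1, 851 without hnRNP M WT replicate 1). Leaving out a library also lets more features through the filter, 19904 to 21494 in place of 10552. Without TMM the split of higher and lower calls was 645 and 400 for FOX2 over hnRNP M, against 1740 and 25 with it. For P-KO over WT in FOX2, 2 features were called in the fit reported, 11 with DESeq2 and 9 with the replicate block. The depth of hnRNP M libraries, the lowest of the 3 proteins, limits what can be said of single sites there.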

Other observations

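A second small group of FOX2 sites on RBFOX2, named after its values were seen, lay between 36164414 and 36164541, the span of positions labelled intron 9 of ENST00000416721.2. It had 14 and 10 FOX2 counts in P-KO and was listed at 0 in both FOX2 WT libraries. TDP43 had 0 and 0 counts there in P-KO and 2 and 3 in WT, and no hnRNP M library listed it. The 10 kb bin that holds it, from 36160001, had 20 and 24 FOX2 counts in P-KO and 11 and 4 in WT, and it did not pass for FOX2 over TDP43 (log2 fold change 2.17 ± 1.49 (SE), edgeR adjusted p = 0.415) or FOX2 over hnRNP M (4.03 ± 1.69 (SE), edgeR adjusted p = 0.0857). Just outside this span on RBFOX2 lay FOX2 windows without an intron number. They had 4 counts in P-KO replicate 1, 260.224 kb from the 5' end of the interval, and 11 in P-KO replicate 2, at 260.21 kb. The group was thus not confined to the span. On HNRNPM, the span of intron 14 of ENST00000348943.3 had TDP43 counts alone, with 9 and 6 counts in P-KO and 0 and 6 in WT. That label has the most TDP43 counts on this RNA, so this is a description.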
